A study of Mus musculus with 12 samples.

Results

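The astrocyte and immune fractions of the injured cortex were compared in Sema4B-/- mice, homozygous knockouts of Sema4b, a gene for a transmembrane semaphorin. All 6 knockout libraries of the series' 12 were used, 3 of the astrocyte fraction and 3 of the immune fraction, and all 20776 genes that the tables of both fractions list. The 6 libraries of Sema4B+/- mice, 3 per fraction, are heterozygous for the knockout and served only to ask whether the fractions differed in the same way without the knockout. All 12 libraries came from cortex wounded in the living animal, so every group shares the injury, and no uninjured or wild-type library was used here. Tissue around the wound was taken 12 h after injury and dissociated. An antibody to ACSA-2, an astrocyte surface antigen, fixed to a plate, held the cells of the astrocyte fraction. Cells held by a CD45 plate and by a plate with secondary antibody alone formed the immune fraction. The labels do not give the age, sex or number of mice behind a library, or which part of Sema4b was altered. Nor do they say that libraries came from separate mice, so the p-values measure only the spread between these libraries.

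Astrocytes take up glutamate and potassium, supply neighbouring cells with lipid and lactate, and respond to injury by a change of state called reactivity. Microglia are the resident macrophages of the brain, and within hours of a wound neutrophils and monocytes join them from the blood. Microglia and these blood cells carry the receptors that read damaged tissue and microbes, and they release the cytokines to which astrocytes respond.

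The knockout astrocyte libraries held 15426713 to 15993564 reads and the knockout immune libraries 13595280 to 15135960. Levels are given as CPM, the reads of a gene scaled to a common library size, with totals adjusted by the TMM method, as mean ± SD over n = 3 libraries. Values of single libraries are listed in the order of the deposited columns, which is 8, 10 and 12 for the astrocyte fraction and 7, 9 and 11 for the immune fraction. These are column numbers. The sample titles are numbered in another way, so a library number here does not point to the sample title with that number. Fold changes are log2 of the astrocyte over the immune fraction ± standard error, so positive values are higher in astrocytes, and p-values come from quasi-likelihood tests in edgeR, adjusted by the Benjamini-Hochberg method. "Higher", "lower", "rose" and "fell" are used for genes with an adjusted p under 0.05. Throughout, "in astrocytes" and "in immune cells" stand for the astrocyte and the immune fraction as a whole, other cells included. They do not say which cell type held the RNA.

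The immune libraries varied more than the astrocyte libraries. Among genes of at least 10 CPM the median coefficient of variation was 9.85% in the astrocyte fraction and 18.6% in the immune fraction. Immune library 11 stood apart with the highest summed neuron markers, 9038 CPM against 6089 and 5493 CPM in libraries 7 and 9, and with the lowest summed mural cell markers, 23.8 CPM against 171 and 507 CPM. Immune library 9 held the most mural, endothelial and neutrophil marker RNA of its group. Sex-linked transcripts showed that libraries differed in the mice behind them. The Y-linked gene Ddx3y had 19.5, 66.5 and 56.5 CPM in the astrocyte libraries and 0, 43.9 and 52.2 CPM in the immune libraries, and the female transcript Xist had 376, 75.9 and 109 CPM in the astrocyte libraries and 698, 163 and 0.526 CPM in the immune libraries. Immune library 7 thus held no Ddx3y read and immune library 11 almost no Xist, while the other 4 libraries held both. The 3 immune libraries were therefore not repeats of 1 pool of cells. Whether each library came from mice of its own is not given. Mitochondrially encoded genes took 6.66% to 7.67% of reads in the astrocyte fraction and 2.73% to 3.87% in the immune fraction. The genes mt-Co2, mt-Co3 and mt-Atp6 were not among the 20776 genes listed for both fractions, so these shares leave them out.

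Sema4b, the targeted gene (ENSMUSG00000030539, GRCm38 chromosome 7, 80186841 to 80226527), was still counted in the knockouts, and mainly in the astrocyte fraction. It had 634, 416 and 802 reads in the astrocyte libraries and 91, 31 and 20 reads in the immune libraries. Scaled, that was 43.8 ± 14.8 CPM in astrocytes and 2.95 ± 2.24 CPM in immune cells, or 3.88 ± 0.53 on the log2 scale (adjusted p by edgeR = 3.94e-04). The groups did not overlap, and without immune library 7 the log2 fold change was 4.71. The tables count reads over whole genes, so these reads show neither an intact transcript nor a protein.

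The defining markers of the 2 fractions separated them widely. Slc1a2, the main glutamate transporter gene of astrocytes, had 11867, 8428 and 16518 CPM in the astrocyte libraries and 439, 484 and 128 CPM in the immune libraries, a log2 fold change of 5.13 ± 0.59. Aldh1l1, a folate enzyme gene used to label astrocytes, had 651, 629 and 681 CPM in the astrocyte libraries and 28.0, 27.5 and 20.5 CPM in the immune libraries, or 4.69 ± 0.22. Csf1r, the receptor gene microglia need to survive, stood at 94.4, 63.1 and 121 CPM in the astrocyte libraries and 2378, 2414 and 1677 CPM in the immune libraries, or -4.54 ± 0.34. Cd33, an inhibitory sialic acid receptor gene of myeloid cells, stood at 2.96, 3.08 and 4.56 CPM in the astrocyte libraries and 128, 159 and 152 CPM in the immune libraries, or -5.37 ± 0.23. No astrocyte library overlapped an immune library for any of the 4, and both labels held against these genes.

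Every measured astrocyte marker rose, 21 of 21, with a median log2 fold change of 5.06, where 26.9% of all genes tested were higher, 28.4% lower, and the median over all genes was -0.08. Gfap, the intermediate filament gene of reactive astrocytes, had 3431 ± 437 CPM in astrocytes and 84.8 ± 21.7 CPM in immune cells. Aqp4, the water channel gene of astrocyte endfeet, had 933 ± 96.7 CPM in astrocytes and 17.3 ± 10.4 CPM in immune cells. Of 20 microglia markers, 19 fell (median -3.98), among them the ADP receptor gene P2ry12, at 17.3 ± 4.59 CPM in astrocytes and 143 ± 15.9 CPM in immune cells. Sall1, a transcription factor gene that marks microglia among immune cells, was the exception. It had 109, 75.6 and 134 CPM in the astrocyte libraries and 158, 120 and 60.4 CPM in the immune libraries, ranges that overlapped, and its difference was -0.09 ± 0.35 on the log2 scale (adjusted p by edgeR = 0.844).

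**Figure D1:**
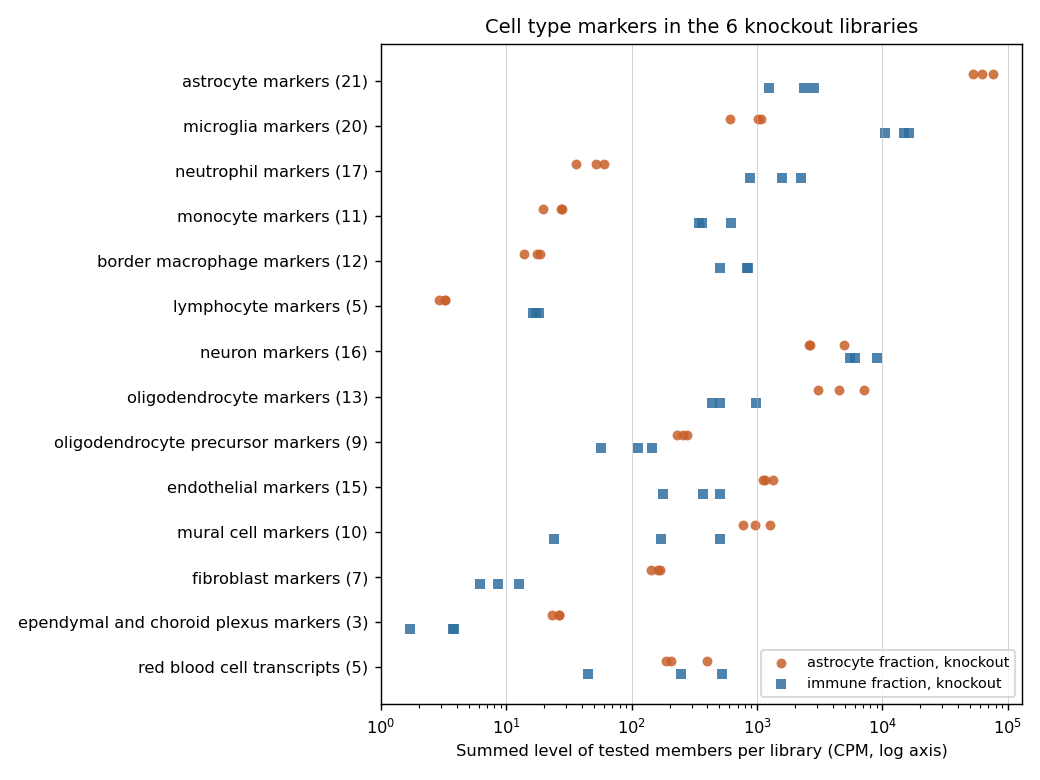
Summed CPM of the tested members of 14 marker lists in each knockout library, on a log axis, with the number of tested members in brackets. Points are single libraries, astrocyte fraction above immune fraction. The groups overlap for red blood cell transcripts and separate for every other list, those of neurons, oligodendrocytes and vessel cells included.

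Markers of blood-derived and border myeloid cells were lower in the astrocyte fraction. Of 19 neutrophil markers 17 passed the filter on low counts, and these 17 fell in the astrocyte fraction (median -5.51). Ly6g and Camp were too low to test. The monocyte markers fell as well, 11 of 11 tested (-4.65, with Gpr141 too low to test), and so did the markers of border macrophages, 12 of 12 (-5.61). The filter can be passed through the reads of a single fraction. Markers hardly counted in astrocytes, such as Ms4a7 at 0.0470 CPM in astrocytes and 7.97 CPM in immune cells, could then only be called lower. These counts describe the markers kept and are no test of their direction. Csf3r, the receptor gene for granulocyte growth factor, had 6.60 ± 2.29 CPM in astrocytes and 231 ± 53.0 CPM in immune cells. Mrc1, the mannose receptor gene of border macrophages, had 1.06, 0.754 and 1.16 CPM in the astrocyte libraries and 119, 101 and 62.9 CPM in the immune libraries, and its log2 fold change of -6.56 ± 0.33 led all genes that fell and had at least 50 CPM in immune cells. Of 5 lymphocyte markers tested, 4 fell, at low levels such as 0.937 ± 0.230 CPM in astrocytes and 5.82 ± 0.487 CPM in immune cells for Cd4. Without astrocyte library 12 the filter kept 9 lymphocyte markers and 7 fell.

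Markers of other cell types were found as well. Oligodendrocyte markers rose in 13 of 13 (median 2.80). The myelin gene Mbp had 1369 ± 381 CPM in the astrocyte fraction and 172 ± 78.5 CPM in the immune fraction. Fibroblast markers rose in 7 of 7 (3.77) and endothelial markers in 14 of 15 (2.21), a count of 9 without immune library 7. The barrier lipid transporter gene Mfsd2a had 398 ± 36.1 CPM in the astrocyte fraction and 14.8 ± 9.14 CPM in the immune fraction. Mural cell markers were divided, with 5 higher and 2 lower of 10. The pericyte channel gene Kcnj8 had 35.7 ± 11.5 CPM in the astrocyte fraction and 3.99 ± 4.20 CPM in the immune fraction. Acta2 and Tagln, contractile genes of smooth muscle, fell. Acta2 had 4.44, 1.58 and 2.32 CPM in the astrocyte libraries and 39.0, 117 and 5.03 CPM in the immune libraries, a log2 fold change of -4.27 ± 1.01 that was -2.99 without immune library 9. Tagln (-2.30 ± 0.80) passed with all libraries and without immune library 11, and did not pass without any other single library. Limma-voom called neither of them.

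Neuron markers leaned to the immune side, with 7 of 16 lower in astrocytes and 0 higher. Their summed level was 2583, 4919 and 2626 CPM in the astrocyte libraries and 6089, 5493 and 9038 CPM in the immune libraries. Rbfox3, which encodes the nuclear antigen NeuN, had 148 ± 51.3 CPM in the astrocyte fraction and 447 ± 198 CPM in the immune fraction (-1.59 ± 0.37). Without astrocyte library 10, which held the most neuron RNA of its group, 11 fell. Ependymal and choroid plexus markers rose in 2 of 3, oligodendrocyte precursor markers in 1 of 9 (Olig2, 3.50 ± 0.34), and 0 of 5 red blood cell transcripts passed.

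Neither fraction was free of the other. The summed astrocyte markers of the immune fraction were 3.36% of those in the astrocyte fraction, and the summed microglia markers of the astrocyte fraction were 6.50% of those in the immune fraction. In these mixtures of cells, fewer cells of a type and less RNA per cell cannot be told apart. The microglial share can be set beside any gene that fell, but it depends on the markers chosen. It was 2.42% for Cd33, 12.1% for P2ry12 and 94.1% for Sall1, which is in the sum. For the other immune marker lists the summed share ran from 2.28% (border macrophages) to 18.2% (lymphocytes). Of 3213 genes that were lower in astrocytes and had at least 10 CPM in immune cells, 294 stood in the astrocyte fraction at or below 6.50% of their immune level, and 2919 stood above it. Of 3270 genes that were higher and had at least 10 CPM in astrocytes, 104 stood in the immune fraction at or below 3.36% of their astrocyte level. How much of a gene's level in either fraction came from carried-over cells was not tested.

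Over all genes the 2 fractions differed for most of those tested. Of 16121 genes tested, 4338 rose and 4580 fell (edgeR adjusted p under 0.05), or 55.3%, and 7203 did not pass. The libraries of the fractions did not overlap for 10390 genes, or 64.5%. At least 4-fold differences were found for 1669 higher and 1313 lower genes, at least 10-fold for 765 and 627, and at least 50-fold for 21 and 73. A mean of at least 100 CPM was reached by 876 genes in the astrocyte fraction only, by 826 in the immune fraction only and by 1275 in both. Genes that reached it in only 1 fraction can lie just under 100 CPM in the other. At least 1 CPM in both fractions was reached by 13636 genes. The balance of directions depended on scaling. With library totals alone 3391 rose and 6222 fell, the lower share of calls was 64.7% in place of 51.4%, and the median of all genes moved to -0.35.

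**Figure D2:**
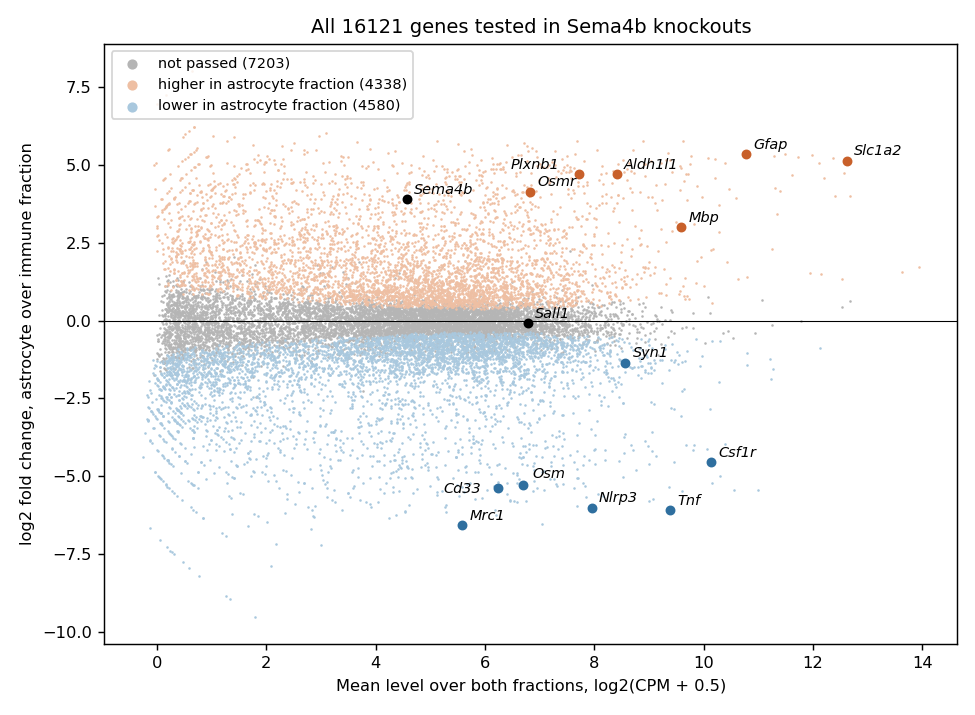
Log2 fold change of the astrocyte over the immune fraction against the mean level of each of the 16121 genes tested in knockouts, coloured by call, with some genes named. Genes that rose reach high levels, as Slc1a2 and Gfap do, and the largest differences among genes that fell lie beyond those of genes that rose.

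The largest differences by the naming rule came from genes of astrocyte transport and signalling on one side and of myeloid activation on the other. Heph, which encodes a copper-dependent ferroxidase, had 67.2 ± 13.4 CPM in astrocytes and 1.25 ± 1.06 CPM in immune cells (5.77 ± 0.60). Gpc5, a surface proteoglycan gene, had 402 ± 65.1 CPM in astrocytes and 7.41 ± 5.19 CPM in immune cells (5.77 ± 0.62). Mlc1, Chrdl1, Ptx3, Kcnj16, Sox21, Slc39a12 and Slc25a18 followed with log2 fold changes from 5.46 to 5.75. On the other side were Lilrb4, an inhibitory leukocyte receptor gene, at 2.80 ± 0.413 CPM in astrocytes and 259 ± 34.3 CPM in immune cells (-6.53 ± 0.23), and Ptafr, the receptor gene for platelet-activating factor (-6.25 ± 0.37). Prdm1, Neurl3, Nlrp3, Acod1 and Tlr13 fell by 5.80 to 6.13. Without immune library 9, which was high in vessel and inflammatory transcripts, the log2 fold change of Heph was 6.42 and that of Mlc1 6.41.

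Genes that define astrocyte work in healthy tissue were higher in the astrocyte fraction, with 1 exception among those listed. All 16 genes of glutamate, potassium and water handling rose (median 5.05), with Kcnj16, a potassium channel gene, at 192, 184 and 260 CPM in the astrocyte libraries and 4.44, 7.12 and 1.64 CPM in the immune libraries. Of 19 transcription factor genes of the astrocyte lineage, 18 rose (median 3.57). Sox9 had 459, 290 and 438 CPM in the astrocyte libraries and 21.1, 19.2 and 14.5 CPM in the immune libraries, and Rfx4 had 106 ± 28.1 CPM in astrocytes and 2.64 ± 0.616 CPM in immune cells. Nfix had 260 ± 17.8 CPM in astrocytes and 213 ± 59.9 CPM in immune cells (0.29 ± 0.23). Cholesterol synthesis genes rose in 20 of 20 (median 2.00), as a group with a smaller difference than the transport genes. Cyp51, a demethylase gene of that route, had 225, 192 and 221 CPM in the astrocyte libraries and 32.7, 25.5 and 19.8 CPM in the immune libraries (3.03 ± 0.22). Apoe, the lipid carrier gene into whose particles astrocytes load cholesterol, had 12393 ± 2144 CPM in astrocytes and 780 ± 289 CPM in immune cells (3.99 ± 0.39).

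Energy genes were found in both directions. Of 22 glycolysis and glycogen genes, 11 rose and 5 fell, or 3 fell without astrocyte library 8. Pygm and Pygb, both glycogen phosphorylase genes, rose by 4.46 ± 0.31 and 3.53 ± 0.24 on the log2 scale. Aldoc, the brain aldolase gene, had 10279 ± 1454 CPM in astrocytes and 274 ± 36.7 CPM in immune cells. Hk2, an inducible hexokinase gene, had 33.4, 23.4 and 32.2 CPM in the astrocyte libraries and 146, 188 and 101 CPM in the immune libraries (-2.29 ± 0.26). Pfkfb3, whose product makes an activator of glycolysis, and Slc16a3, which exports lactate, fell with it, at -2.67 ± 0.30 and -4.24 ± 0.31. Of 9 mitochondrially encoded genes tested 8 rose (median 1.49), with mt-Co2, mt-Co3 and mt-Atp6 not listed for both fractions. The gene mt-Co1 had 24012 ± 2144 CPM in astrocytes and 7314 ± 2010 CPM in immune cells.

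Matrix and growth factor genes rose more often than the 26.9% of all genes, and Notch genes were found in both directions. Matrix and proteoglycan genes rose in 15 of 20 and fell in 0 (median 2.33), with Bcan, the brevican gene, at 1620 ± 200 CPM in astrocytes and 62.8 ± 33.5 CPM in immune cells. Growth factor genes rose in 12 of 19 and fell in 3. Fgf2 had 120 ± 18.2 CPM in astrocytes and 7.36 ± 2.54 CPM in immune cells, and the vessel growth factor gene Vegfa had 430 ± 13.8 CPM in astrocytes and 80.2 ± 24.3 CPM in immune cells. Pdgfb was the leading exception, at 20.7 ± 0.633 CPM in astrocytes and 202 ± 44.9 CPM in immune cells (-3.29 ± 0.21). Notch pathway genes rose in 8 of 16 and fell in 3, or 5 without immune library 11, with the target gene Hey2 at 3.12 ± 0.30 and Rbpj, the pathway's DNA-binding partner, at -2.08 ± 0.25. Of 21 genes of matrix proteases and their inhibitors 6 rose and 10 fell, where 26.9% of all genes rose and 28.4% fell. Mmp3 rose by 4.27 ± 0.28 and the inhibitor gene Timp4 by 4.94 ± 0.38, while Mmp9, stored in neutrophil granules, was at -5.02 ± 0.39 and the urokinase gene Plau at -3.18 ± 0.32.

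**Figure D3:**
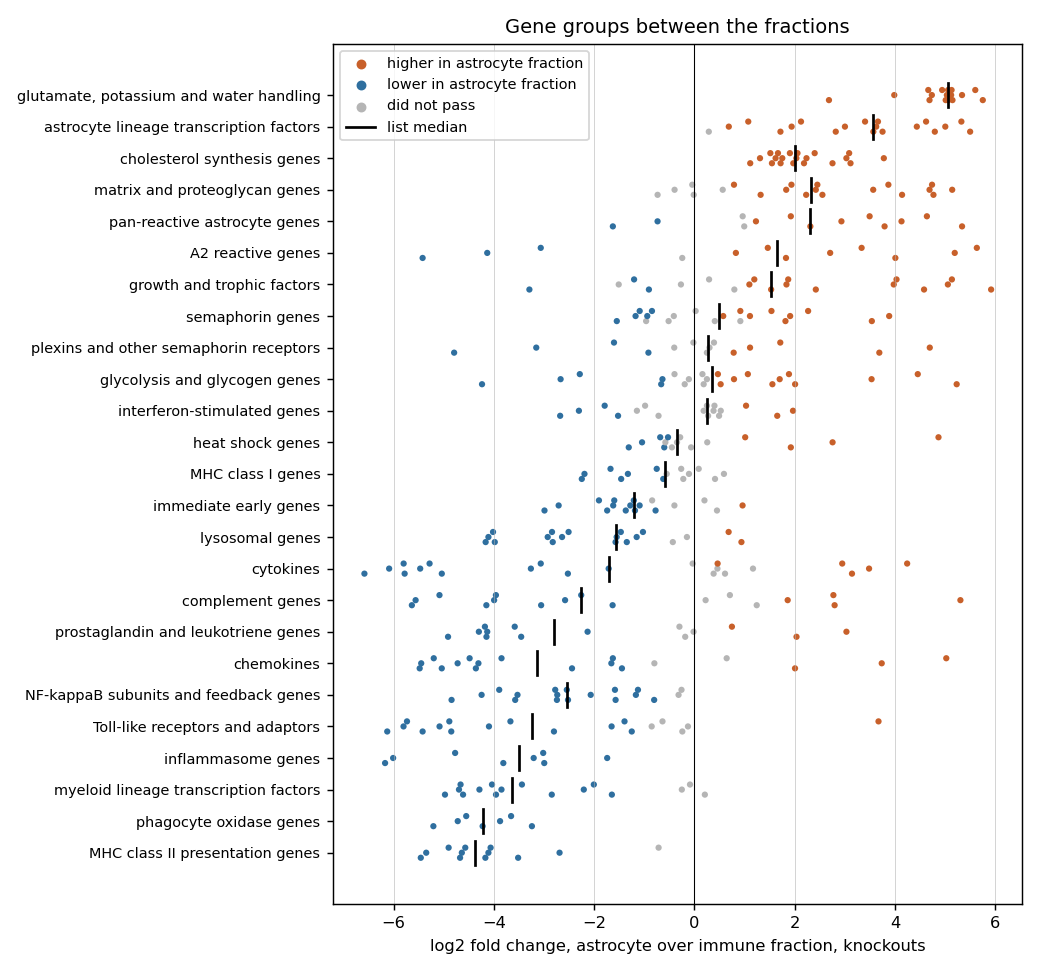
Log2 fold change of each tested member of 25 gene lists, astrocyte over immune fraction in knockouts, with the list median as a bar and lists ordered broadly from astrocyte to immune. The members of the top 3 lists lie right of 0 and those of the lowest lists left of it, and lists between them, such as heat shock and interferon-stimulated genes, span both sides.

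Most genes for sensors of damage were lower in astrocytes, and 1 was higher. Of 18 genes for Toll-like receptors and their adaptors, 13 fell and 1 rose. Tlr2, which reads bacterial lipoproteins, had 22.6, 16.8 and 19.9 CPM in the astrocyte libraries and 1193, 1271 and 691 CPM in the immune libraries (-5.73 ± 0.33). Tlr3, which reads double-stranded RNA, ran the other way, with 160, 187 and 173 CPM in the astrocyte libraries and 15.3, 18.6 and 6.90 CPM in the immune libraries (3.67 ± 0.35, edgeR adjusted p = 5.74e-05). The adaptor gene Myd88 had 69.8 ± 5.63 CPM in astrocytes and 76.3 ± 17.3 CPM in immune cells (-0.13 ± 0.20). Irak2, a kinase gene of the same route, had 106 ± 21.4 CPM in astrocytes and 125 ± 19.3 CPM in immune cells (-0.24 ± 0.21), or -0.52 with library totals alone, where it passed. The 8 genes listed for the inflammasome, the platform that activates caspase 1, include caspase genes, and all 8 fell (median -3.51). Nlrp3 had 7.27, 6.99 and 8.40 CPM in the astrocyte libraries and 469, 588 and 404 CPM in the immune libraries, a log2 fold change of -6.01 ± 0.25.

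Of 18 genes of NF-kappaB subunits and feedback, 16 fell and 0 rose (median -2.53). Rel, a subunit gene of lymphoid and myeloid cells, had 8.86 ± 1.12 CPM in astrocytes and 255 ± 37.98 CPM in immune cells, while Rela had 105 ± 14.98 CPM in astrocytes and 131 ± 21.3 CPM in immune cells (-0.32 ± 0.19, and -0.58 with library totals alone, where it passed). Immediate early genes, which respond to stimulation or to handling of cells within minutes, fell in 12 of 17 and rose in 1. Atf3, a stress-induced factor gene, had 79.9, 65.2 and 78.0 CPM in the astrocyte libraries and 466, 601 and 391 CPM in the immune libraries (-2.71 ± 0.23). Fos had 504, 378 and 451 CPM in the astrocyte libraries and 548, 453 and 158 CPM in the immune libraries (0.20 ± 0.41), and the groups overlapped. Fosl1 was the 1 that rose, at 0.96 ± 0.33, and it did not pass without astrocyte library 8 or without immune library 9 or 11.

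Of 21 cytokine genes 11 fell and 5 rose. Tnf had 24.6, 9.05 and 24.3 CPM in the astrocyte libraries and 702, 2404 and 833 CPM in the immune libraries, a log2 fold change of -6.09 ± 0.66 that was -5.32 without immune library 9. Il1b had 22.6, 19.0 and 13.5 CPM in the astrocyte libraries and 1080, 1416 and 538 CPM in the immune libraries (-5.78 ± 0.44). The 5 that rose were Il33, Il18, Tgfb2, Il11 and Il34. Il33, an alarm signal kept in the nucleus until cells break, had 219, 216 and 189 CPM in the astrocyte libraries and 9.73, 16.01 and 7.31 CPM in the immune libraries (4.24 ± 0.30). Il18, which needs an inflammasome to mature, had 107 ± 1.38 CPM in astrocytes and 12.2 ± 3.53 CPM in immune cells (3.14 ± 0.23), so it lay opposite to all 8 inflammasome genes. Il34 differed by only 0.46 ± 0.16 and did not pass without any 1 of 5 libraries, astrocyte 8, 10 or 12 and immune 9 or 11.

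Among 18 chemokine genes 13 fell and 3 rose. Ccl3, which draws monocytes, had 91.3 ± 27.8 CPM in astrocytes and 3992 ± 1557 CPM in immune cells (-5.45 ± 0.43). The 3 that rose were Cxcl14, Cxcl12 and Cxcl5, and Cxcl14 had 941 ± 164 CPM in astrocytes and 28.9 ± 11.0 CPM in immune cells. The neutrophil attractants Cxcl1, Cxcl2 and Cxcl3 lie on chromosome 5. Cxcl2 and Cxcl3 fell, and Cxcl1 did not pass. Cxcl2 had 14.7, 7.95 and 13.5 CPM in the astrocyte libraries and 277, 655 and 258 CPM in the immune libraries (-5.04 ± 0.46). Cxcl3 had 1.90, 1.23 and 1.67 CPM in the astrocyte libraries and 58.6, 122 and 35.2 CPM in the immune libraries (-5.48 ± 0.51). Cxcl1 had 108, 75.6 and 68.2 CPM in the astrocyte libraries and 31.9, 94.2 and 35.4 CPM in the immune libraries. Its log2 fold change of 0.64 ± 0.41 did not pass (edgeR adjusted p = 0.211), and without immune library 9 it was 1.32 and passed.

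The 3 genes are shown with the 250 bases before their start sites, since they share a motif. Each holds an NF-kappaB motif of 10 letters, of which 1 may vary, once in its promoter, in capitals, beginning 71, 97 and 73 bases before the start of Cxcl1, Cxcl2 and Cxcl3. The stretch just after the start of Cxcl3 matched transcripts of the GENCODE annotation only in part, so its distance of 73 bases is less certain. The coordinates are chr5:90890995-90891244, chr5:90903649-90903898 and chr5:90785851-90786100, all on the plus strand of GRCm38.p6, with sequence from RefSeq.
Cxcl1: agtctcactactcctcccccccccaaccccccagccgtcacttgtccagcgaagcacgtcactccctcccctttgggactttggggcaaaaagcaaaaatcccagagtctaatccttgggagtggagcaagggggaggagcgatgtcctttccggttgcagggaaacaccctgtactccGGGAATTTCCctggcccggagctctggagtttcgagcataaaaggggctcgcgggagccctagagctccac
Cxcl2: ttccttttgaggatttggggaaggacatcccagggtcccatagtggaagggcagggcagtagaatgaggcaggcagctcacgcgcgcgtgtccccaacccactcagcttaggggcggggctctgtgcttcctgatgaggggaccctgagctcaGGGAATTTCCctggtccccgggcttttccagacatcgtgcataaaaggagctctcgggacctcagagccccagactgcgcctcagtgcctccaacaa
Cxcl3: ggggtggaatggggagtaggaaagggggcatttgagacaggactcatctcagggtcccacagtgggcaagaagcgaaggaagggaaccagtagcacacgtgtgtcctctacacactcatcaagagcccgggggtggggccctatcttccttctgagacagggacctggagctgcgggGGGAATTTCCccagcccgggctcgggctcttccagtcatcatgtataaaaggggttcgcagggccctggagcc

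Promoters of 300 bases, from 250 before to 50 after the start, were matched by symbol for 11710 of the 16121 genes tested, and motifs were searched on both strands. The NF-kappaB motif stood in 0.652% of promoters of genes that rose, 0.824% of those that fell and 0.345% of those that did not pass, against 0.564% of all. Among chemokine genes it stood in 3 of 12, the 3 shown. The PU.1 motif GAGGAAGT, named for the myeloid factor that Spi1 encodes, stood in 2.76% of promoters of genes that rose, 5.34% of those that fell and 3.01% of those that did not pass, against 3.60% of all. Spi1 itself had 19.5 ± 7.40 CPM in astrocytes and 320 ± 66.6 CPM in immune cells, and 13 of 16 transcription factor genes of the myeloid lineage fell.

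The PU.1 motif was in 3 of 7 inflammasome promoters, those of Aim2, Pycard and Nlrp1b, the highest share of any list. Among complement genes it was in 1 of 10, C1qc, which was also the 1 of 13 microglia markers. Border macrophage markers held it in 2 of 10 and lysosomal genes in 3 of 14. It was in 0 of 12 promoters of myeloid lineage factors, 0 of 24 of cytokine and chemokine receptors, 0 of 13 of cytokines and 0 of 12 of chemokines. Aim2, a sensor of DNA in the cytosol, had 1.90, 1.03 and 1.45 CPM in the astrocyte libraries and 47.6, 38.6 and 34.2 CPM in the immune libraries. Pycard, the adaptor that links sensors to caspase 1, had 6.35 ± 1.73 CPM in astrocytes and 50.7 ± 11.5 CPM in immune cells. Pycard and Cxcl3 were chosen for their motif after the values were seen. In the sequences below the motif, or its reverse complement ACTTCCTC, is in capitals. It begins 113 bases before the start of Aim2 (chr1:173420354-173420603, plus strand), 44 before that of Pycard (chr7:127993868-127994117, minus strand) and 195 before that of C1qc (chr4:136892915-136893164, minus strand). A match describes the letters in the window and does not show that a factor binds.
Aim2: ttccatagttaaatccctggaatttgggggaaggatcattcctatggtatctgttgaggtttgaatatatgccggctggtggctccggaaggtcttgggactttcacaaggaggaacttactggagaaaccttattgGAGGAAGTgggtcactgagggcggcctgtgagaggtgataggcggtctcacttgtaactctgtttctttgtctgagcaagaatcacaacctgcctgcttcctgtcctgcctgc
Pycard: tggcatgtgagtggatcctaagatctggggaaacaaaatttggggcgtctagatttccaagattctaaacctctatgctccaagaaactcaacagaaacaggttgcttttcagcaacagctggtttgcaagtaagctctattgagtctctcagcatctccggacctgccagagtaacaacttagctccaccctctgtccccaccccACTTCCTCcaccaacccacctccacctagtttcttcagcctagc
C1qc: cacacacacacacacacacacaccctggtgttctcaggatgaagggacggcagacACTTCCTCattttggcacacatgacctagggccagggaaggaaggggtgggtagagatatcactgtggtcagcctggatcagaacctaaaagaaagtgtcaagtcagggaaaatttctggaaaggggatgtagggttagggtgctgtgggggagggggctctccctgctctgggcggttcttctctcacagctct

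The other motifs searched are given as shares of promoters of genes that rose, fell and did not pass, and of all promoters. C/EBP (TTGCNNAA) stood in 10.8%, 11.8%, 8.82% and 10.2%, and AP-1 (TGANTCA) in 6.68%, 7.20%, 5.87% and 6.46%. SREBP (TCACNCCAC) stood in 1.68%, 1.65%, 1.09% and 1.41%. Of 14 cholesterol synthesis genes with a promoter, 1 held the SREBP motif, Hmgcs1, which is named for it alone. STAT (TTCCNGGAA) stood in 1.55%, 1.34%, 1.496% and 1.47%, and SOX (AACAATGG) in 0.652%, 0.793%, 0.748% and 0.734%. RBPJ (TGTGGGAA) stood in 2.42%, 1.77%, 1.92% and 2.02%, and the composite ETS-IRF element in 2.86%, 3.05%, 2.72% and 2.85%. The palindromic NFI motif and 2 forms of the RFX motif were each found in at most 15 of all promoters.

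Genes of antigen presentation by class II and of killing by oxidants were lower in astrocytes. MHC class II presentation genes fell in 11 of 12 (median -4.37), with H2-Ab1 at 1.63 ± 0.365 CPM in astrocytes and 40.7 ± 14.2 CPM in immune cells and the costimulatory gene Cd86 at 5.18 ± 0.747 CPM in astrocytes and 228 ± 31.0 CPM in immune cells. MHC class I genes fell in 7 of 14 and were closer between the fractions (median -0.59). H2-K1 had 155 ± 12.9 CPM in astrocytes and 428 ± 127 CPM in immune cells. All 7 genes of the phagocyte oxidase fell (median -4.22), and Cybb, its catalytic subunit gene, had 2.76 ± 0.510 CPM in astrocytes and 102 ± 26.8 CPM in immune cells. Lysosomal genes fell in 15 of 19. Ctss, the cathepsin gene that trims the class II invariant chain, had 118 ± 34.3 CPM in astrocytes and 2031 ± 558 CPM in immune cells. Lamp1, a lysosomal membrane gene, rose, with 992 ± 103 CPM in astrocytes and 518 ± 143 CPM in immune cells.

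Complement and phagocytosis genes were found in both directions. Of 17 complement genes, 10 fell and 4 rose. The C1q subunit gene C1qa had 108, 67.7 and 111 CPM in the astrocyte libraries and 1710, 2068 and 1315 CPM in the immune libraries (-4.15 ± 0.32). C4b, which is cleaved downstream of C1q, had 200, 200 and 214 CPM in the astrocyte libraries and 31.9, 35.0 and 21.3 CPM in the immune libraries (2.80 ± 0.22). C3 had 7.07 ± 2.92 CPM in astrocytes and 42.3 ± 16.8 CPM in immune cells, and its receptor gene C3ar1 had 11.3 ± 5.07 CPM in astrocytes and 563 ± 191 CPM in immune cells. Of 18 phagocytosis genes, 12 fell and 4 rose. Those that rose were the engulfment receptor gene Megf10 (5.01 ± 0.53), Axl (3.52 ± 0.47), Mertk (1.41 ± 0.23) and Gpnmb (1.81 ± 0.27). Trem2 and its signalling partner Tyrobp fell by 3.77 ± 0.31 and 3.67 ± 0.28 on the log2 scale.

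Genes of lipid mediators and of nucleotide signalling were found in both directions as well. Prostaglandin and leukotriene genes fell in 8 of 14 and rose in 3. Ptgs2, the inducible cyclooxygenase gene, had 30.1, 33.9 and 19.1 CPM in the astrocyte libraries and 370, 728 and 361 CPM in the immune libraries (-4.13 ± 0.38), whereas Ptges, a synthase gene for prostaglandin E, had 92.1 ± 10.7 CPM in astrocytes and 22.5 ± 14.6 CPM in immune cells (2.04 ± 0.41). The log2 fold change of Ptges was 2.69 without immune library 9. Of 16 genes of purine signalling, 9 fell and 6 rose. Ectoenzymes that break down ATP split, with Entpd2 at 63.5, 61.6 and 71.6 CPM in the astrocyte libraries and 2.46, 3.49 and 0.526 CPM in the immune libraries, and Entpd1 at 13.2 ± 1.55 CPM in astrocytes and 132 ± 44.7 CPM in immune cells. P2ry1 and Adora1 rose, by 2.71 ± 0.36 and 1.43 ± 0.19, and P2ry13 was at -4.90 ± 0.38.

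Genes named for reactive astrocytes were not all higher in the astrocyte fraction. Of 13 pan-reactive genes, 9 rose and 2 fell. Serpina3n, a protease inhibitor gene, had 962, 988 and 844 CPM in the astrocyte libraries and 42.2, 56.8 and 13.5 CPM in the immune libraries (4.64 ± 0.51). Cxcl10 and Cd44 fell, at -1.63 ± 0.33 and -0.74 ± 0.26, and Cd44 did not pass without astrocyte library 10 or 12 or without immune library 7 or 9. Lcn2, which neutrophils also store, had 227 ± 8.19 CPM in astrocytes and 114 ± 62.4 CPM in immune cells (0.99 ± 0.39, edgeR adjusted p = 0.0609). It passed at 1.40 without immune library 9 and at 0.62 without immune library 11. It also passed with RLE scaling (edgeR adjusted p = 0.0474), DESeq2 (0.0155), limma-voom (0.0407), all 12 libraries (0.0318) and the replicate block (0.0415). Of the genes assigned to the A1 state 5 of 11 rose and 4 fell, and of those assigned to A2 8 of 12 rose and 3 fell. The A2 genes that fell were Cd14, Ptgs2 and Clcf1, and Cd14, a coreceptor gene for endotoxin, had 68.7 ± 19.4 CPM in astrocytes and 2947 ± 1151 CPM in immune cells.

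Stress and interferon genes were not set apart by their counts. Heat shock genes rose in 4 of 15 and fell in 5, near the 26.9% and 28.4% of all genes. The lower count was 5 with all libraries, 2 without astrocyte library 8 and 3 without astrocyte library 10. The small heat shock gene Hspb8 had 151 ± 12.6 CPM in astrocytes and 5.21 ± 2.82 CPM in immune cells, and the chaperone gene Hsp90ab1 1157 ± 16.6 CPM in astrocytes and 2386 ± 267 CPM in immune cells. Interferon-stimulated genes rose in 3 of 17 and fell in 4. Without immune library 9, 8 rose and 2 fell. The lower count was 7 without immune library 11, and 2 without astrocyte library 10 or 12 or immune library 7. Bst2 had 9.29 ± 1.68 CPM in astrocytes and 45.9 ± 14.8 CPM in immune cells. Ifit3 had 54.5 ± 10.9 CPM in astrocytes and 17.4 ± 11.1 CPM in immune cells, a log2 fold change of 1.65 ± 0.43 that was 2.25 without immune library 9. Proliferation genes fell in 7 of 12 and rose in 1, with Mki67 at 0.284 ± 0.131 CPM in astrocytes and 3.11 ± 0.988 CPM in immune cells.

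Ligands and their receptors were listed as 42 pairs to see which fraction held which partner. In 7 pairs the ligand fell and the receptor rose, so that the ligand gene was higher in the immune and the receptor gene in the astrocyte fraction. In 6 the ligand rose and the receptor fell. Both partners fell in 10 pairs and both rose in 4. Of all genes tested 28.4% fell and 26.9% rose.

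**Figure D4:**
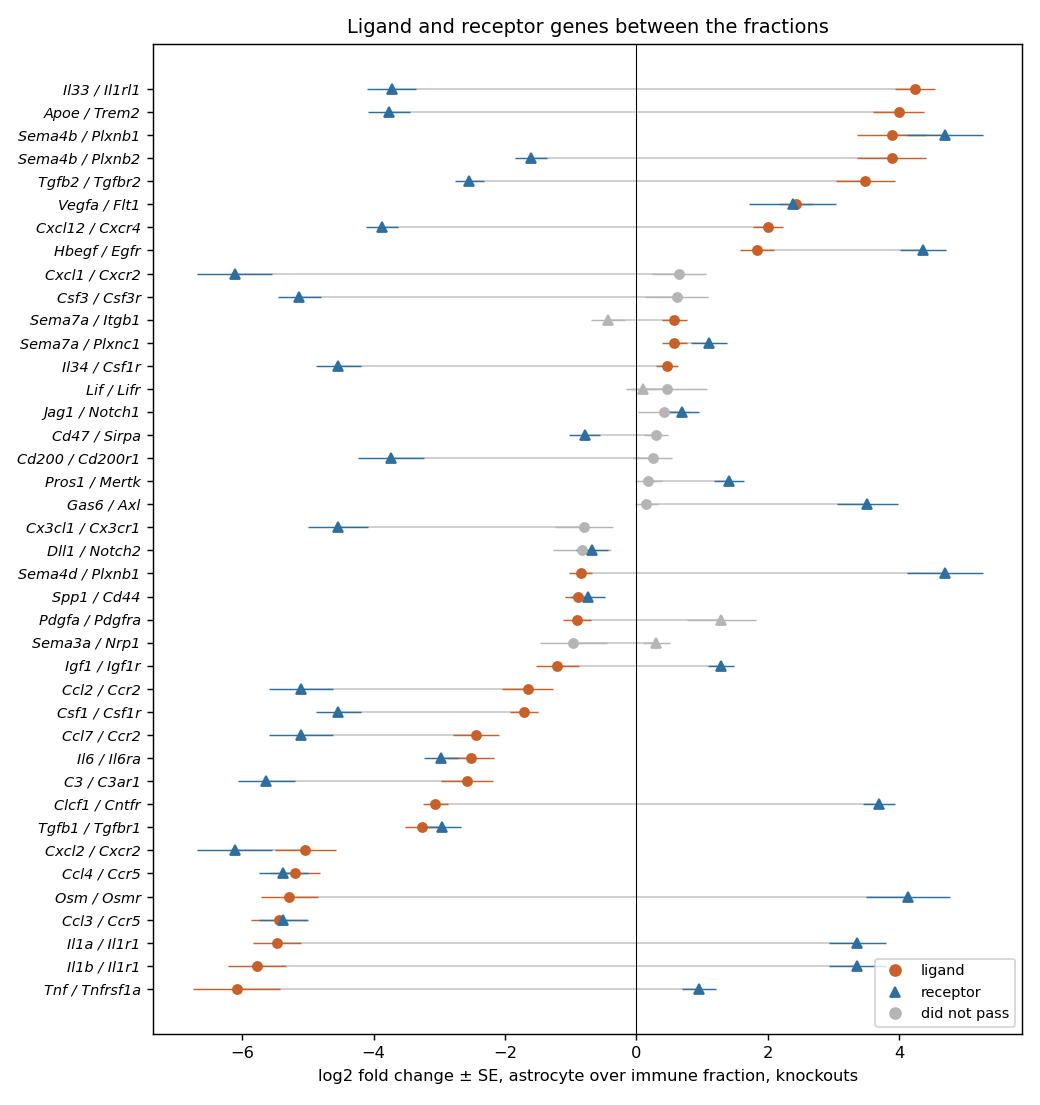
Log2 fold change ± SE of ligand genes (circles) and receptor genes (triangles), astrocyte over immune fraction in knockouts, for the 40 pairs with both partners tested, ordered by the ligand. Grey symbols did not pass. Long bars join partners on opposite sides, as for Osm and Osmr near the bottom and Il33 and Il1rl1 at the top.

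Oncostatin M and its receptor were 1 of the 7 pairs whose ligand fell and whose receptor rose. Osm had 5.64, 2.88 and 7.03 CPM in the astrocyte libraries and 160, 298 and 148 CPM in the immune libraries (-5.28 ± 0.43). Osmr, its receptor gene, had 229, 207 and 202 CPM in the astrocyte libraries and 12.1, 22.0 and 2.52 CPM in the immune libraries (4.13 ± 0.64, or 4.86 without immune library 9). Il1r1, the signalling receptor gene for interleukin 1, had 67.4, 57.1 and 57.5 CPM in the astrocyte libraries and 4.92, 10.3 and 2.57 CPM in the immune libraries (3.36 ± 0.43, or 4.01 without immune library 9), opposite to Il1a and Il1b. Il1r2, which encodes the decoy receptor that does not signal, lay with the ligands, at 5.13 ± 0.896 CPM in astrocytes and 125 ± 29.2 CPM in immune cells. Clcf1 and Cntfr, ligand and receptor of the same cytokine family, stood at -3.07 ± 0.19 and 3.69 ± 0.24. Tnfrsf1a rose by 0.96 ± 0.26 and Tnfrsf1b, the other receptor gene for TNF, fell by 5.26 ± 0.32.

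In the other direction, Il33 stood opposite its receptor gene Il1rl1, which had 0.353, 0.206 and 0.290 CPM in the astrocyte libraries and 4.26, 4.48 and 2.81 CPM in the immune libraries (-3.73 ± 0.38). Apoe stood opposite Trem2, Tgfb2 (3.48 ± 0.45) opposite Tgfbr2 (-2.54 ± 0.22), and Cxcl12 (2.01 ± 0.23) opposite Cxcr4 (-3.87 ± 0.24). The growth factor genes for Csf1r were both found in astrocytes, but Csf1 was lower there, at 139 ± 13.5 CPM in astrocytes and 454 ± 94.2 CPM in immune cells. Cx3cl1, a neuronal ligand, had 159 ± 98.8 CPM in astrocytes and 277 ± 120 CPM in immune cells (-0.80 ± 0.45), and its receptor gene Cx3cr1 fell by 4.55 ± 0.46. Cx3cl1 passed at -1.37 without astrocyte library 10. Gas6 and Pros1, which bridge dying cells to Axl and Mertk, did not pass. Gas6 had 135 ± 22.97 CPM in astrocytes and 122 ± 5.93 CPM in immune cells. Pros1 had 102 ± 2.09 CPM in astrocytes and 90.2 ± 23.8 CPM in immune cells.

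The receptor genes for semaphorins passed about as often as all genes did, 26.9% of which rose and 28.4% fell. Of 20 semaphorin genes 9 rose and 5 fell, a lower count of 3 without astrocyte library 12 or immune library 7 or 9, and of 14 plexin and other receptor genes 5 rose and 4 fell. Plxnb1, a plexin gene for class 4 semaphorins, had 401, 309 and 502 CPM in the astrocyte libraries and 20.4, 22.2 and 4.33 CPM in the immune libraries (4.69 ± 0.58), on the side of Sema4b. Plxnb2 had 87.8, 67.9 and 94.7 CPM in the astrocyte libraries and 324, 252 and 185 CPM in the immune libraries (-1.60 ± 0.24). Cd72, a receptor gene for Sema4d on leukocytes, had 10.9, 7.40 and 6.45 CPM in the astrocyte libraries and 281, 315 and 89.5 CPM in the immune libraries (-4.79 ± 0.50). Sema4d itself had 73.4 ± 11.1 CPM in astrocytes and 132 ± 14.01 CPM in immune cells (-0.85 ± 0.17). Nrp2, a coreceptor gene for class 3 semaphorins, fell by 3.15 ± 0.28, while Nrp1 had 22.5 ± 3.43 CPM in astrocytes and 18.3 ± 3.82 CPM in immune cells (0.30 ± 0.21).

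Whether the fractions differed in knockouts as they did in heterozygotes was tested in 1 fit of all 12 libraries over 16880 genes. In that fit 4896 genes rose and 5190 fell in knockouts, and 5064 rose and 5107 fell in heterozygotes. The 4283 genes that rose in both were 87.5% of those in knockouts and 84.6% of those in heterozygotes. The 4078 that fell in both were 78.6% of those in knockouts and 79.9% of those in heterozygotes. The difference of the differences passed for 0 genes by the edgeR test (0%, lowest adjusted p = 0.475), and 1753 genes (10.4%) had an unadjusted p under 0.05, 686 with a more positive log2 fold change in knockouts and 1067 with a more negative one. DESeq2 called 3 genes, Fry, Il34 and Cacna1c, and limma-voom 0. When 1 library was left out, the lowest edgeR adjusted p ran from 0.0714 (without knockout astrocyte library 10) to 0.777 (without heterozygote immune library 1). A count of 0 does not show that the knockout left the fractions unchanged.

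**Figure D5:**
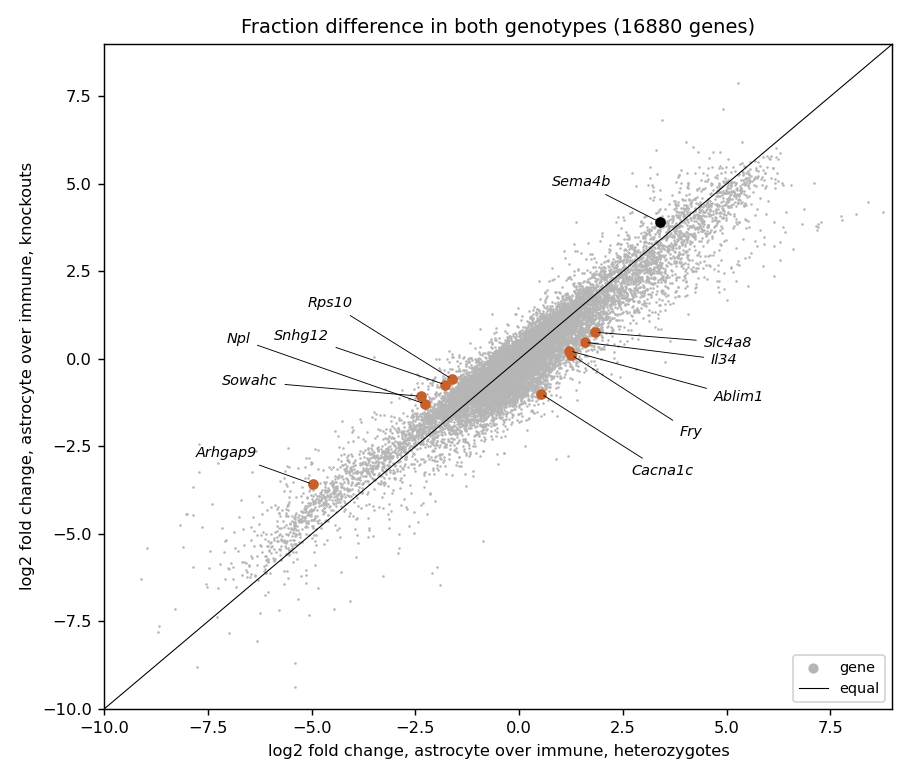
Log2 fold change of the astrocyte over the immune fraction in knockouts (vertical axis) against that in heterozygotes (horizontal axis) for 16880 genes in 1 fit of 12 libraries. The line marks equal values, and orange points are the 10 genes named for the lowest p of the difference, 5 in each direction, with Sema4b in black.

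The genes with the lowest p for that difference are given by their levels in all 4 groups. Fry, which encodes a scaffold protein of the cytoskeleton, had 68.0 ± 3.51 CPM in astrocytes and 62.5 ± 10.2 CPM in immune cells of knockouts, and 85.2 ± 5.29 CPM in astrocytes and 35.8 ± 2.22 CPM in immune cells of heterozygotes. The log2 fold change was 0.12 ± 0.14 in knockouts and 1.25 ± 0.14 in heterozygotes, a difference of -1.13 ± 0.20. Il34, a ligand gene for Csf1r, had 28.5 ± 1.55 CPM in astrocytes and 20.5 ± 2.54 CPM in immune cells of knockouts, and 33.4 ± 1.91 CPM in astrocytes and 11.2 ± 1.08 CPM in immune cells of heterozygotes, a difference of -1.10 ± 0.20. Cacna1c, a calcium channel gene, differed by -1.51 ± 0.31. Ablim1 and Slc4a8 differed by -0.97 ± 0.21 and -1.07 ± 0.23. In the positive direction were Rps10 (1.03 ± 0.22), Snhg12 (1.04 ± 0.24), Sowahc (1.31 ± 0.32), Arhgap9 (1.39 ± 0.35) and Npl (0.98 ± 0.25). All 10 genes named by this rule had an adjusted p of 0.475 by edgeR. Neuron markers had a median log2 fold change of -0.85 in knockouts and 0.06 in heterozygotes. That of microglia markers was -3.98 in knockouts and -4.67 in heterozygotes, and that of mural markers 2.52 in knockouts and 4.71 in heterozygotes. These knockout medians come from the fit of 6 libraries and the heterozygote medians from the fit of 12, so they differ in scaling as well. Whether the makeup of the fractions accounts for the unadjusted differences was not tested.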

How the data were processed

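Total RNA of the astrocyte and immune fractions was sequenced, and each library is 1 deposited column. The submitters' processing notes name cutadapt, STAR, HTSeq, DESeq2 and the build GRCm38, and versions, annotation and strand setting are not given in the sources used here. Raw read counts per gene, deposited by the authors and marked as such in the file headers, were the values used. Per the file headers the tables also hold the authors' normalized counts, log2 fold changes, p-values and a highest-count score for knockouts over heterozygotes, none of which was used.

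The 2 tables were joined on gene. Genes were filtered with edgeR 4.0.16 (filterByExpr, 10 reads in a library and 15 in total), scaled by TMM and tested 2-sided with robust quasi-likelihood fits in R 4.3.3, with Benjamini-Hochberg adjustment over all genes tested at 0.05. The filter can be passed through the reads of a single fraction, so list members hardly counted in the other fraction could be called in a single direction only. A fold change is a fitted log2 value, and its standard error is its size divided by the root of F. Knockouts and heterozygotes were compared by the interaction term of a 12-library fit. The scripts were tested on simulated data. Alternatives were other scalings, filters and thresholds, limma-voom (limma 3.58.1), DESeq2 1.42.0, a minimum-change test, a block by column number and leaving out each library.

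By raw library totals, a count of 3 reads corresponds to 0.188 to 0.194 CPM in knockout astrocyte libraries and 0.198 to 0.221 CPM in knockout immune libraries. On the TMM scale of the levels it is more in these astrocyte libraries, with factors of 0.864 to 0.947. It is less in these immune libraries, with factors of 1.035 to 1.168. Reads of overlapping or near-identical genes cannot be told apart from these counts. Neighbouring column numbers were not treated as pairs. The members and gene lists were chosen with earlier results of these data known. Genes named are the markers, the genes of largest change and lowest p, up to 5 members of each list with the lowest p per direction and up to 3 abundant members that did not pass, both partners of each pair and the leading interaction genes. Others named are said to be chosen after their values were seen.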

Additional observations from a re-analysis of the deposited data

How the results depend on the processing

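No alternative run called a gene in the direction opposite to the main call. Of the counts over all genes, requiring a change beyond 1 on the log2 scale (glmTreat) left 2180 higher and 1733 lower, and an adjusted p under 0.01 left 3276 higher and 2964 lower. The other alternatives stayed within 1.5 times the main counts of 4338 and 4580, with 4446 and 4447 by DESeq2's scaling, 4513 and 4560 by DESeq2, and 4447 and 4597 by limma-voom. Leaving out 1 library at a time gave 3730 to 4591 higher and 3438 to 4737 lower. For the difference between genotypes DESeq2 called 3 genes where edgeR called 0, edgeR called 0 without each of the 12 libraries in turn, and 1073 to 2489 genes then had an unadjusted p under 0.05. Sema4b was higher in astrocytes under every alternative, at 3.49 to 4.71 when 1 library was left out. With the column number as a replicate block 4007 rose and 3918 fell. Deviations of neighbouring columns correlated at 0.094, -0.393 and -0.026, and those of other columns at -0.363 to 0.376. With 3 libraries per group these correlations cannot decide whether neighbouring columns share mice. By the sex-linked transcripts, immune library 7 held no Ddx3y read, and its neighbour, astrocyte library 8, held Ddx3y and Xist. Immune library 11 held almost no Xist, and its neighbour, astrocyte library 12, held both transcripts. The mice behind those neighbours were therefore not the same set, and whether some mice were shared is not given. Of genes that did not pass, with library totals alone the log2 fold change was -0.057 for Fos, -0.058 for Ablim1, -0.17 for Fry, -0.14 for Gas6, -0.0022 for Nfix and -0.081 for Pros1, each positive with TMM. Leaving out 1 library gave -0.17 to 0.53 for Fos, -0.00086 to 0.23 for Fry, -0.023 to 0.31 for Pros1, -0.39 to 0.23 for Sall1, -0.019 to 1.12 for Ddx3y and -1.59 to 1.19 for Xist. Xist was at 1.90 by limma-voom and 0.52 with the replicate block. Why settings differed was not tested. Depth limits genes near the filter, and 3 libraries per group limit small differences.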

Other observations

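Gene classes of the annotation that are not protein-coding were divided unevenly between the fractions. Of 325 tested genes whose annotated class is TEC, a class of transcripts still to be checked experimentally, 12.9% rose and 43.4% fell in astrocytes (median log2 fold change -0.82). Among 14209 protein-coding genes 27.7% rose and 28.1% fell. Of 29 sense intronic genes 2 rose and 13 fell. Whether unspliced or genomic reads contribute was not tested.

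Some genes were counted in 1 fraction alone, and these were chosen after their values were seen. Spic, a transcription factor gene of red pulp macrophages, had 0 reads in every astrocyte library and 64, 78 and 33 reads in the immune libraries. Trem3, a myeloid receptor gene, had 0 reads in every astrocyte library and 32, 45 and 37 reads in the immune libraries. Lalba, the milk protein gene, had 12, 23 and 18 reads in the astrocyte libraries and 0 in every immune library. By raw library totals, without TMM, a count of 0 allows up to 0.194 CPM in an astrocyte and 0.221 CPM in an immune library, for counting error only.

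Itga8, an integrin gene also chosen after its values were seen, was the 1 gene called in opposite directions by genotype in the 12-library fit. In knockouts alone, the fit of 6 libraries, it did not pass (-0.86 ± 0.37, edgeR adjusted p = 0.0814). Its log2 fold change was -0.84 ± 0.33 in knockouts and 0.88 ± 0.34 in heterozygotes, and the difference of -1.73 ± 0.48 did not pass (edgeR adjusted p = 0.475).

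The mean log2(CPM + 0.5) of the astrocyte markers was 10.35, 10.18 and 10.59 in the astrocyte libraries and 5.54, 5.83 and 4.36 in the immune libraries. That of the microglia markers was 4.62, 3.88 and 4.75 in the astrocyte libraries and 8.30, 8.42 and 7.85 in the immune libraries.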
